A study of Mus musculus with 7 samples.

Results

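The genes described here are the amino acid and neurotransmitter transporters of the mouse uterus, taken as all gene symbols of the solute carrier families Slc1, Slc3, Slc6, Slc7, Slc36, Slc38 and Slc43 in the deposited table. The rule gave 61 genes of the 24964 listed, by name alone, and it was set with earlier results of these data known. Of these 61, 36 reached a mean of 1 FPKM over the libraries and were tested. FPKM is a fragment count scaled by gene length and by the size of the library. The other 25 fell below that level, and 3 of them (Slc6a5, Slc6a18 and Slc7a12) had 0 fragments in every library, which allows up to 3 fragments per library at this depth.

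RNA was sequenced from whole uterus of mice at 12 weeks of age, with diestrus given as the cycle stage of every library. The 3 control libraries had the genotype Pgrcre/+, a single allele of the progesterone receptor gene carrying Cre recombinase, and bear the numbers 1, 2 and 4. The 4 other libraries had the genotype Pgrcre/+Foxl2LsL/+, the same Cre allele plus 1 allele named Foxl2LsL, and bear the numbers 1 to 4. They are called the libraries labelled Foxl2LsL, or Foxl2LsL libraries. Both groups thus carry Cre at 1 Pgr allele, and Cre is made only where Pgr is active, while the tissue holds every cell type of the organ. In such bulk samples, fewer cells of a type and less RNA per cell cannot be told apart. The labels do not say that the libraries came from separate animals, so p-values measure the spread between these libraries.

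Foxl2, a forkhead transcription factor gene, was at 11.1, 19.3 and 12.9 FPKM in controls 1, 2 and 4 and at 12.7, 14.3, 14.8 and 17.2 FPKM in Foxl2LsL libraries 1 to 4. The groups overlapped (log2 fold change 0.06, SE 0.18; limma adjusted p 0.818), so the table shows no rise of Foxl2 that would check the labels. Whether transcripts of the Foxl2LsL allele are counted under this symbol is not given in the sources used here, and every direction below is for the labels as they stand. The uterine genes Hoxa10, Hoxa11, Hoxd10, Emx2, Pgr, Esr1, Wnt7a, Foxa2 and Hand2 were all above 1 FPKM in each library. Of these 9, 5 were lower past the threshold (Hoxa10, Hoxa11, Hoxd10, Foxa2 and Hand2) and Esr1 was higher. Libraries held 47800000 to 67300000 fragments by recovery from the FPKM values. Several libraries stood apart by marker genes. Control 2 had 291 FPKM of the oviduct gene Ovgp1 where the 6 others had 1.65 to 19.7. The summed level of 10 adipocyte markers was 164, 238 and 425 FPKM in control 4 and Foxl2LsL libraries 2 and 3, against 24.1 to 65.9 FPKM in the other 4. Control 4 also lay farthest from the other libraries on the second principal component. The 13 markers of dividing cells all fell, from a summed level of 203 to 422 FPKM in controls to 61.5 to 102 FPKM in Foxl2LsL libraries. The part of any of these in the results below was not tested unless a value without the library is given.

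Cells cannot make all amino acids, and charged or polar molecules do not cross the membrane unaided, so uptake depends on carriers. Slc1 carriers move glutamate or small neutral amino acids with sodium. Slc6 carriers take back neurotransmitters and osmolytes such as taurine and creatine. Most Slc7 carriers are light chains that reach the membrane only when bound to a heavy chain of the Slc3 family, and they exchange one amino acid for another. Slc36 and Slc38 carriers include lysosomal members that report amino acid supply to the growth kinase mTORC1. In the uterus such carriers supply the stroma and epithelium and load the luminal fluid that bathes the embryo.

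The promoters of 43 of the 61 genes were matched in RefSeq (GRCm38), in windows from 250 bases before to 50 bases after the start site. The windows were searched on both strands for TGATGNAAN, a composite element bound by ATF4, the transcription factor of the amino acid starvation response, for the forkhead site GTAAACA and for the estrogen response element, GGTCA and TGACC with 3 bases of any kind between them. The ATF4 element was present in 5 of 64 windows of these genes (7.81%) and in 3.95% of all 32851 windows. It lay in windows of Slc7a11, Slc7a7, Slc1a4 and Slc6a21, of which the first 3 passed the test below. Slc7a7 gave 2 of the 5 windows. These overlap and hold the same TGATGCAAC, so that match is counted in both. The stretches of Slc7a11, Slc7a7 and Slc1a4 are shown. Capitals mark every match. In Slc7a11 they are a forkhead match 232 bases before the start site and a pair of ATF4 elements whose first bases lie 66 and 48 bases before it.
Slc7a11, chr3:50443614-50443863, minus strand: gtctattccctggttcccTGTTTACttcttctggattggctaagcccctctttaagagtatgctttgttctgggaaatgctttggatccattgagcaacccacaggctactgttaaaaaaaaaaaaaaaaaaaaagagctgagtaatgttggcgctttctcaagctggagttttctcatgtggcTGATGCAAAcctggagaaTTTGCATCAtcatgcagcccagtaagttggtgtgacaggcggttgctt
Slc7a7, chr14:54417937-54418094, minus strand: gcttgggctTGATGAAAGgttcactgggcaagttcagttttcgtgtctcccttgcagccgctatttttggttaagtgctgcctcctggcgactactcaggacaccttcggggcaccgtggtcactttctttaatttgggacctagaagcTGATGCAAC
Slc1a4, chr11:20332710-20332813, minus strand: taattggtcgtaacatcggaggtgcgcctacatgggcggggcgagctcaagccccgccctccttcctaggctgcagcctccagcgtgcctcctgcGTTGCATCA
The forkhead site was present in 2 of the 64 windows (3.13%), those of Slc7a11 and Slc36a3, and in 3.65% of all windows. The estrogen response element was in 0 of the 64 and in 0.0700% of all windows. These matches describe letters only, and the windows of Slc6a2 and Slc7a5 were not analysed here.

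The first question was how many of the transporters differed between the genotypes. Of the 36 tested, 15 had a limma p below 0.05 after Benjamini-Hochberg adjustment over the 13334 genes of the fit, 4 higher and 11 lower in the libraries labelled Foxl2LsL. This share of 41.7% is near the 40.6% of all tested genes that passed, so the number of changed transporters is what the whole table shows. For rises alone, the 4 of 36 stand beside 16.7% of all genes, and for falls alone, the 11 of 36 stand beside 23.9%. The groups did not overlap in 17 of the 36, against 47.6% of all genes. The median log2 fold change was -0.17 for the transporters and -0.05 for all genes. Of the 15, 9 passed in each of the 7 fits that left out 1 library (Slc1a4, Slc6a2, Slc7a2, Slc7a5, Slc7a6, Slc7a8, Slc36a1, Slc38a4 and Slc38a10). The count was 11 without control 2 and 13 without control 4, and in both fits all of these were among the 15. Over all genes, 28.9% passed without control 2 and 40.0% without control 4.

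**Figure D1:**
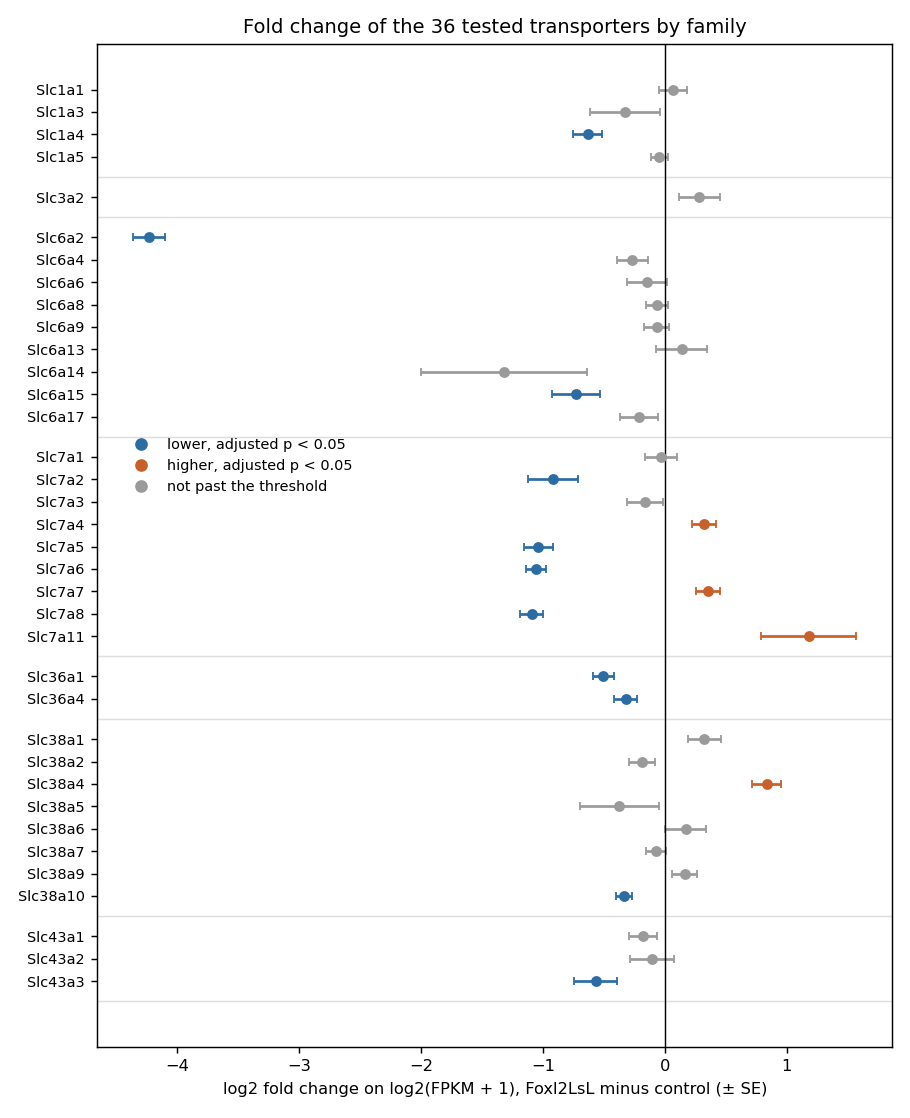
Log2 fold change on the log2(FPKM + 1) scale, Foxl2LsL minus control, with its standard error, for the 36 tested transporters grouped by family; colour marks the call at an adjusted p of 0.05. Slc6a2 stands alone at -4.23, and Slc7a8, Slc7a6 and Slc7a5 lie between -1.09 and -1.04 while Slc7a11 lies at 1.18.

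By level, Slc1a5 (61.2 FPKM), Slc3a2 (53.0), Slc38a2 (46.3) and Slc6a6 (33.7 FPKM) were the 4 highest of the 61 in controls by group mean. In the Foxl2LsL libraries the highest were Slc3a2 (63.5 FPKM), Slc1a5 (59.4), Slc38a2 (40.7), Slc7a11 (31.1) and Slc6a6 (30.5 FPKM). None of Slc1a5, Slc3a2, Slc38a2 and Slc6a6 passed the threshold, and each had overlapping groups. Slc7a11 moved from rank 10 to rank 4 and Slc6a2 from rank 7 to rank 43. Summed over the 61 genes, the level was 436 to 462 FPKM in controls and 382 to 422 FPKM in Foxl2LsL libraries, and these ranges did not overlap. The Slc6 family accounted for the largest part of that gap. Its sums were 78.9, 79.3 and 99.5 FPKM in controls and 46.2 to 56.7 FPKM in Foxl2LsL libraries. Within it, Slc6a2 alone went from a mean of 20.3 FPKM to 0.128 FPKM, and Slc6a14 was at 19.0 FPKM in control 4. Of the 9 tested Slc6 genes, 2 passed (22.2% against 40.6% of all genes). The closest totals over the 61 genes were 436 FPKM in control 4 and 422 FPKM in Foxl2LsL 3. That gap is smaller than the level of Slc6a2 in control 4, at 23.0 FPKM against 0.239 FPKM in Foxl2LsL 3. The separation of the totals thus rests on Slc6a2 and does not show a fall across the 61 genes. Sums without Slc6a2 and Slc6a14 were not taken.

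Among the monoamine carriers, Slc6a2, the norepinephrine transporter, was almost lost. It was at 16.4, 21.6 and 23.0 FPKM in controls 1, 2 and 4 and at 0.0630, 0.0930, 0.239 and 0.116 FPKM in Foxl2LsL libraries 1 to 4. Behind these values stood 6301 to 9155 fragments per control and 25 to 88 per Foxl2LsL library. All controls were high and all Foxl2LsL libraries were near 0, with a ratio of group means of 159. The log2 fold change was -4.23 (SE 0.13; limma adjusted p 1.13e-05), the third lowest of the 13334 genes tested. That scale understates it, since with a pseudocount of 0.1 it was -6.53 and on recovered fragments -7.44. Slc6a2 reached the filter through the controls, and it also passed when all genes above 0 were tested (limma adjusted p 0.000105). The gene lies at chr8:92960079-93001667 (GRCm38, plus strand), and its exons overlap no other annotated gene.

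Slc6a2 is best known from sympathetic neurons, so the markers of those cells were read beside it. Of the 13 markers, 6 were below 0.1 FPKM in all 7 libraries, among them the synthesis gene Th, the factors Phox2a and Hand1, and Snap25 and Elavl4. Dbh, the enzyme that makes norepinephrine, was at 0.0690 to 0.548 FPKM in controls and 0.138 to 0.290 FPKM in Foxl2LsL libraries. Of the 3 neuronal markers tested, Uchl1 and Stmn2 fell by 0.73 and 0.36 on the log2 scale, and Slc18a2, the vesicular monoamine transporter, did not pass, with 1.18 to 1.30 FPKM in controls and 1.051 to 1.28 FPKM in Foxl2LsL libraries. The summed level of the 13 markers was 6.84 to 7.86 FPKM in controls and 4.22 to 4.86 FPKM in Foxl2LsL libraries. In controls, the level of Slc6a2 alone was higher than the summed level of the 13 neuronal markers. Which cells held the Slc6a2 RNA was not tested.

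Slc6a4, the serotonin transporter, was at 1.051, 1.64 and 1.38 FPKM in controls and 0.861, 1.18, 0.848 and 0.928 FPKM in Foxl2LsL libraries. The groups overlapped through Foxl2LsL 2 and the gene did not pass (log2 fold change -0.26, SE 0.13; limma adjusted p 0.128). Slc6a3, the dopamine transporter, had at most 3 fragments in any library.

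Slc6a14 and Slc6a15 carry neutral amino acids, the former cationic ones too. Slc6a15 fell, from 0.974, 1.86 and 2.47 FPKM in controls to 0.530, 0.776, 0.810 and 0.429 FPKM in Foxl2LsL libraries (log2 fold change -0.73, SE 0.20; limma adjusted p 0.0232). The groups did not overlap, but control 1 lay close to the Foxl2LsL libraries, and the call was lost without control 2, Foxl2LsL 1 or Foxl2LsL 4 (adjusted p up to 0.0772). With a pseudocount of 0.1 the log2 fold change of Slc6a15 was -1.29 and on recovered fragments -1.41. Its Foxl2LsL mean was 0.636 FPKM, so it reached the filter through the controls. When all genes above 0 were tested, Slc6a15 passed (limma adjusted p 0.0340). Slc6a14 was at 1.37, 1.75 and 19.0 FPKM in controls 1, 2 and 4 and at 1.001, 0.714, 1.29 and 1.18 FPKM in Foxl2LsL libraries. Its groups did not overlap, but most of its mean difference came from control 4. Slc6a14 did not pass with that library (limma adjusted p 0.156) or without it (log2 fold change -0.33, adjusted p 0.113). Slc6a17, a vesicular carrier of neutral amino acids, did not pass and its groups overlapped.

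The carriers of osmolytes and inhibitory transmitters included abundant genes that did not pass. Slc6a6, which takes up taurine, ranged from 28.6 to 39.2 FPKM in controls and from 23.2 to 36.1 FPKM in Foxl2LsL libraries. Slc6a8, the creatine transporter, ranged from 10.2 to 11.9 and from 9.17 to 10.96 FPKM, and Slc6a9, a glycine transporter, from 4.96 to 6.13 and from 4.39 to 5.61 FPKM. These 3 overlapped between the groups, with limma adjusted p values of 0.510, 0.593 and 0.645. The annotated exons of Slc6a9 overlap Ccdc24 on the opposite strand over 27.8% of their bases, and the use of strand in counting is not given in the sources used here.

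Slc6a12 and Slc6a13, carriers of betaine and GABA, are neighbours on chromosome 6, 5.34 kb apart. Slc6a13 was at 1.76, 3.72 and 1.78 FPKM in controls and 2.86, 2.42, 2.13 and 3.28 FPKM in Foxl2LsL libraries, and did not pass (limma adjusted p 0.625). Slc6a12 lay under the filter, at 0.766, 1.07 and 0.688 FPKM in controls and 0.230, 0.137, 0.147 and 0.191 FPKM in Foxl2LsL libraries (117 to 186 and 17 to 39 fragments). Its groups did not overlap. When all genes above 0 were tested, Slc6a12 had a log2 fold change of -0.64 (limma adjusted p 0.00204), and in that fit 27.6% of 21011 genes passed. The proline transporter Slc6a7 was at 0.0460 to 0.359 FPKM, and the GABA transporter Slc6a11 and its relatives Slc6a16, Slc6a19 and Slc6a21 had at most 3 fragments in any library.

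**Figure D2:**
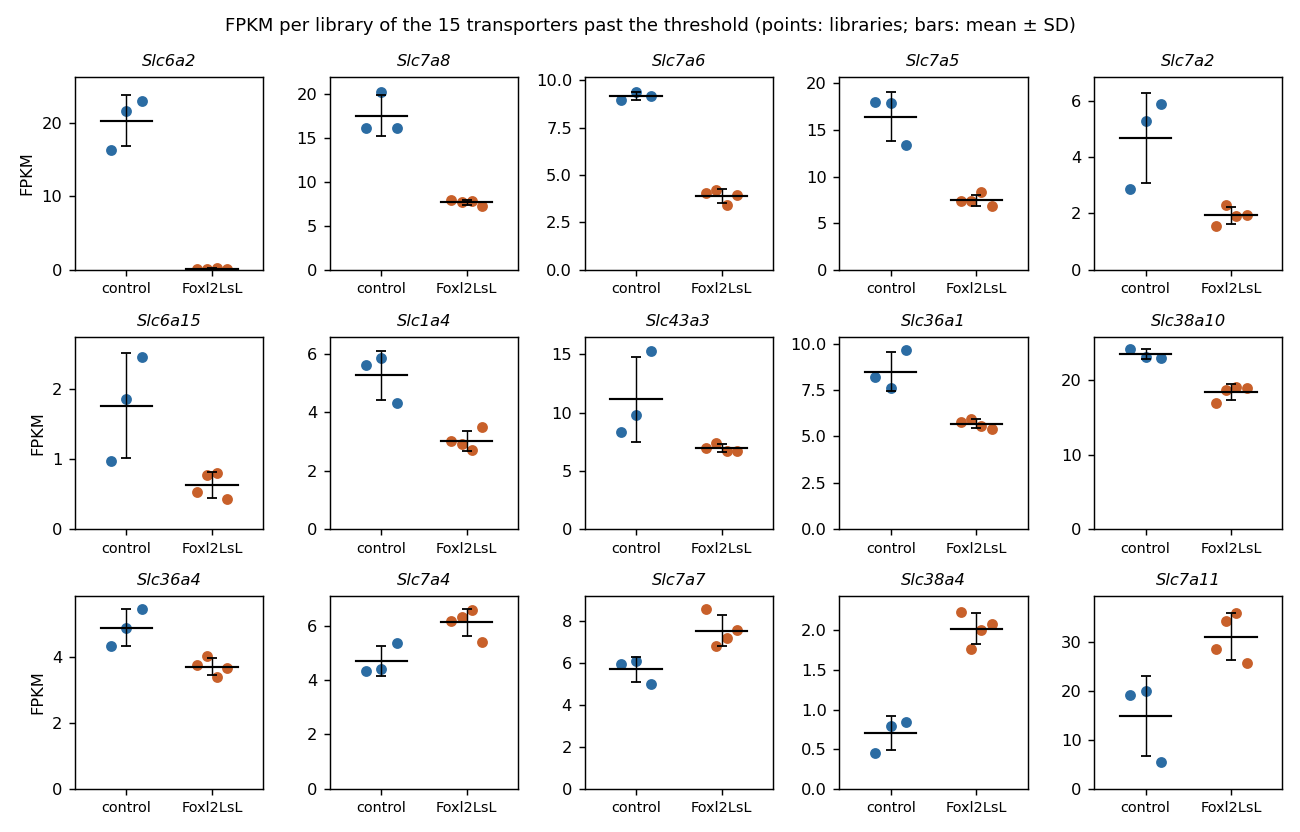
FPKM in each library of the 15 transporters past the threshold, with group mean ± SD, each on its own axis from 0. The groups do not overlap in any of the 15, and Slc6a2 lies at 0.239 FPKM or less in all 4 Foxl2LsL libraries.

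The light chains that pair with Slc3a2 moved apart. Slc7a5 and Slc7a8, which exchange large neutral amino acids such as leucine, and Slc7a6, which exchanges cationic for neutral amino acids, fell. Slc7a11, which imports cystine for glutamate and so feeds glutathione synthesis, and Slc7a7, the closest relative of Slc7a6 in function, rose. Slc3a2 itself did not pass.

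Slc7a8 was at 16.2, 20.2 and 16.2 FPKM in controls and at 7.92, 7.67, 7.82 and 7.23 FPKM in Foxl2LsL libraries. Slc7a5 was at 18.02, 17.9 and 13.4 FPKM in controls and at 7.36, 7.32, 8.30 and 6.79 FPKM in Foxl2LsL libraries. Slc7a6 was at 8.95, 9.37 and 9.18 FPKM in controls and at 4.03, 4.23, 3.39 and 3.94 FPKM in Foxl2LsL libraries. In all 3 genes each control lay above each Foxl2LsL library, and the control mean was 2.29, 2.21 and 2.35 times the other. Their log2 fold changes were -1.09 (SE 0.09), -1.04 (SE 0.12) and -1.06 (SE 0.08), with limma adjusted p values of 0.000305, 0.000796 and 0.000212. On the log2(FPKM + 1) scale, 4 of 36 transporters, these 3 and Slc6a2, fell by at least 2-fold past the threshold, against 4.16% of all tested genes. A rise of that size on the same scale was found in 1 of 36, Slc7a11, against 3.62% of all tested genes. This scale shrinks low genes, and by the ratio of group means the falls of Slc7a2 (2.43) and Slc6a15 (2.78) and the rise of Slc38a4 (2.88) were also above 2. The 13 markers of dividing cells fell in the same libraries, with a median log2 fold change of -2.19, and their part in these falls was not tested.

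Slc7a11 was at 19.1, 20.1 and 5.55 FPKM in controls and at 28.6, 34.4, 35.98 and 25.7 FPKM in Foxl2LsL libraries. The Foxl2LsL libraries were all above the controls, and control 4 was lowest of all (log2 fold change 1.18, SE 0.39; limma adjusted p 0.0440). Without control 4 the log2 fold change was 0.63 and still passed (adjusted p 0.0112), while the call was lost when any 1 of the 4 Foxl2LsL libraries was left out (adjusted p up to 0.104) and with no filter on low genes (adjusted p 0.0747). Slc7a7 was at 5.99, 6.13 and 5.01 FPKM in controls and at 8.59, 6.84, 7.23 and 7.61 FPKM in Foxl2LsL libraries. These groups did not overlap (log2 fold change 0.35, SE 0.10; limma adjusted p 0.0251), and the call was lost without control 4, Foxl2LsL 1 or Foxl2LsL 4 (adjusted p up to 0.0617). Slc7a7 is also known from macrophages, and the summed level of 12 leukocyte markers was 53.5 to 64.7 FPKM in controls and 71.1 to 106 FPKM in Foxl2LsL libraries; 2 of the 7 tested were higher, and their part in the rise was not tested. Slc7a7 and Slc7a8 lie 304 kb apart on chromosome 14 and moved in opposite directions.

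Slc3a2, the heavy chain that carries these light chains to the membrane, was at 62.0, 59.1 and 37.9 FPKM in controls and 60.5, 61.6, 72.2 and 59.7 FPKM in Foxl2LsL libraries. The groups overlapped (log2 fold change 0.28, SE 0.17; limma adjusted p 0.214), and without control 4, the lowest library, the log2 fold change was 0.06. The 6 light chains together stood at 64.1 ± 12.5 FPKM (SD, n = 3) in controls and 58.4 ± 5.67 FPKM (SD, n = 4) in Foxl2LsL libraries. Within that sum the composition differed. Slc7a11 was 28.0%, 27.2% and 11.1% of the light chain FPKM in controls and 49.9% to 56.1% in Foxl2LsL libraries. Slc7a5 and Slc7a8 together stood at 29.6 to 38.1 FPKM in controls and 14.0 to 16.1 FPKM in Foxl2LsL libraries. The ratio of summed light chains to Slc3a2 was 1.10 to 1.32 in controls and 0.862 to 0.995 in Foxl2LsL libraries, and these ranges did not overlap. These sums were not tested, since they were built from genes described above.

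**Figure D3:**
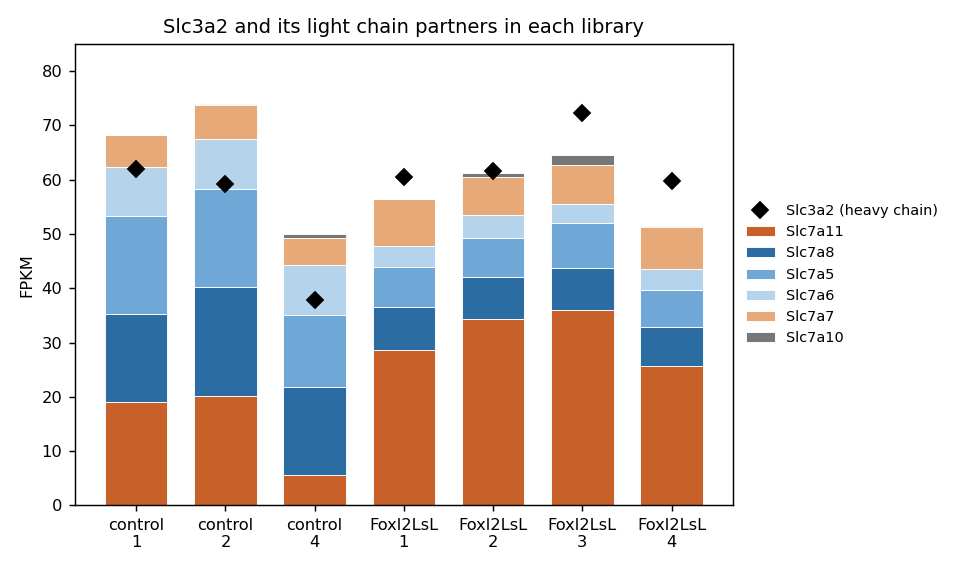
FPKM of the 6 light chain partners of Slc3a2 stacked for each library, with Slc3a2 as a diamond. Slc7a11 fills 49.9% to 56.1% of each Foxl2LsL bar, and the blue blocks of Slc7a8, Slc7a5 and Slc7a6 are larger in the controls.

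The sixth light chain, Slc7a10, a carrier of small neutral amino acids known from adipocytes, lay under the filter. It was at 0.0730, 0.153 and 0.703 FPKM in controls and 0.0470, 0.816, 1.75 and 0.234 FPKM in Foxl2LsL libraries. Its 3 highest libraries were control 4 and Foxl2LsL 2 and 3, the same 3 in which the adipocyte markers were highest. Slc36a2, a proton-coupled carrier known from fat and kidney, was also highest in Foxl2LsL 2 and 3 (1.28 and 1.94 FPKM) and ranged from 0.276 to 0.843 FPKM in the other 5 libraries. The adipocyte markers Adipoq and Cidec were at 0 FPKM in control 1 and at 27.3 and 15.9 FPKM in Foxl2LsL 3. Of 9 adipocyte markers tested, 2 passed (Lipe and Pnpla2, both higher), a share of 22.2% against 40.6% of all genes. Lipe was highest in Foxl2LsL 1 (16.1 FPKM), where Adipoq was at 0.409 FPKM, and Pnpla2 in Foxl2LsL 3 (29.1 FPKM).

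**Figure D4:**
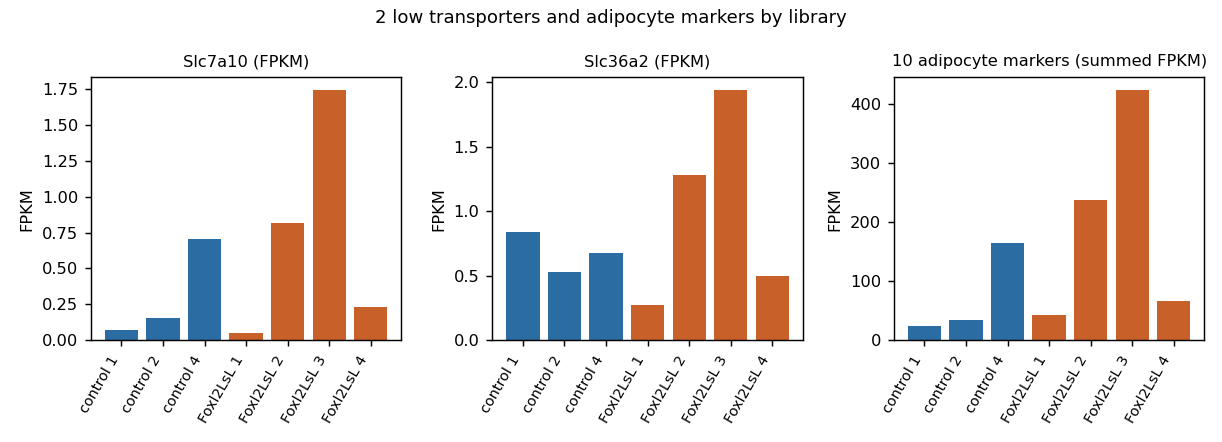
FPKM of Slc7a10 and Slc36a2 and the summed FPKM of 10 adipocyte markers in each library (blue, control; orange, Foxl2LsL). Foxl2LsL 2 and 3 are highest in all 3 panels, and control 4 is next for Slc7a10 and the markers but not for Slc36a2.

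The other heavy chain, Slc3a1, and its partners Slc7a9, which takes up cystine and dibasic amino acids in kidney, and Slc7a13 were low. Slc3a1 was at 0.124 to 0.418 FPKM over the 7 libraries, Slc7a9 at 0.0670 to 0.215 FPKM and Slc7a13 had at most 4 fragments. The annotated exons of Slc3a1 overlap those of Prepl on the opposite strand over 26.5% of their bases.

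The cationic amino acid carriers of the family take up arginine and lysine on their own, without a heavy chain. Slc7a1, the widely expressed one, was at 11.9, 12.4 and 8.80 FPKM in controls and 9.32, 10.4, 12.1 and 10.9 FPKM in Foxl2LsL libraries and did not pass (limma adjusted p 0.863). Slc7a2, the inducible one, fell, from 2.86, 5.30 and 5.88 FPKM in controls to 1.54, 2.31, 1.92 and 1.96 FPKM in Foxl2LsL libraries. Its groups did not overlap and control 1 was the lowest control (log2 fold change -0.92, SE 0.20; limma adjusted p 0.00977). Slc7a3 did not pass, at 0.902 to 1.62 FPKM in controls and 0.930 to 1.36 FPKM in Foxl2LsL libraries.

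Slc7a4, a relative of the cationic carriers, rose from 4.35, 4.397 and 5.35 FPKM in controls to 6.18, 6.32, 6.56 and 5.40 FPKM in Foxl2LsL libraries (log2 fold change 0.32, SE 0.10; limma adjusted p 0.0316). The gap between control 4 and Foxl2LsL 4 was small, and the call was lost without control 1, control 2 or Foxl2LsL 1, 2 or 3 (adjusted p up to 0.105) and with no filter on low genes (adjusted p 0.0544). Its annotated exons overlap P2rx6 on the opposite strand over 13.3% of their bases. Slc7a15 had 17, 16 and 9 fragments in controls and 0, 2, 1 and 1 in Foxl2LsL libraries. It lay under the filter, and when all genes above 0 were tested it had a log2 fold change of -0.09 (limma adjusted p 0.00837). Slc7a14 had at most 5 fragments in any library.

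In the Slc1 family, Slc1a4, an exchanger of alanine, serine and cysteine, fell from 5.62, 5.85 and 4.30 FPKM in controls to 3.01, 2.90, 2.69 and 3.49 FPKM in Foxl2LsL libraries. The groups did not overlap (log2 fold change -0.63, SE 0.12; limma adjusted p 0.00490). Its relative Slc1a5, the glutamine exchanger, was at 61.4, 61.0 and 61.3 FPKM in controls and 57.8, 54.6, 63.5 and 61.7 FPKM in Foxl2LsL libraries. Slc1a5 did not pass, and its log2 fold change of -0.04 had a standard error of 0.07 (limma adjusted p 0.644).

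Of the glutamate carriers of that family, Slc1a1 ranged from 20.7 to 26.4 FPKM in controls and from 21.0 to 28.1 FPKM in Foxl2LsL libraries and did not pass. The annotated exons of Slc1a1 overlap 4430402I18Rik on the opposite strand over 31.9% of their bases. Slc1a3, the glial glutamate carrier, was at 0.817, 3.44 and 2.20 FPKM in controls and 0.954, 1.70, 1.69 and 1.17 FPKM in Foxl2LsL libraries and did not pass (limma adjusted p 0.398). The neuronal and glial carriers Slc1a2, Slc1a6 and Slc1a7 were at most at 0.649 FPKM in any library.

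Both tested members of the Slc36 family fell. Slc36a1, a proton-coupled carrier that exports small amino acids from the lysosome, was at 8.21, 7.61 and 9.67 FPKM in controls and 5.79, 5.95, 5.59 and 5.39 FPKM in Foxl2LsL libraries (log2 fold change -0.50, SE 0.09; limma adjusted p 0.00414). Slc36a4 was at 4.35, 4.91 and 5.48 FPKM in controls and 3.76, 4.05, 3.41 and 3.67 FPKM in Foxl2LsL libraries (log2 fold change -0.32, SE 0.09; adjusted p 0.0280). The groups of neither gene overlapped, but Slc36a4 lost its call without control 2, control 4 or Foxl2LsL 1, 3 or 4 (limma adjusted p up to 0.0786), after median-of-ratios scaling and with no filter on low genes (adjusted p 0.0530). Slc36a3 had at most 4 fragments in any library.

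In the Slc38 family, 1 of 8 tested genes rose, 1 fell and 6 did not pass, so that 25.0% changed against 40.6% of all genes. Slc38a4, a sodium-coupled carrier of neutral amino acids and an imprinted gene known from placenta and liver, rose from 0.455, 0.797 and 0.849 FPKM in controls to 2.23, 1.765, 2.005 and 2.085 FPKM in Foxl2LsL libraries. The Foxl2LsL mean was 2.88 times the control mean, on 120 to 607 fragments per library (log2 fold change 0.83, SE 0.12; limma adjusted p 0.00190). On recovered fragments, which carry no pseudocount of 1 FPKM, the log2 fold change was 1.59. The control mean of Slc38a4 was 0.700 FPKM, so it reached the filter through the Foxl2LsL libraries. When all genes above 0 were tested, Slc38a4 passed (limma adjusted p 0.00305). Slc38a10 fell from 24.3, 23.2 and 23.1 FPKM in controls to 16.9, 18.7, 19.2 and 19.0 FPKM in Foxl2LsL libraries, with no overlap (log2 fold change -0.33, SE 0.07; adjusted p 0.00684).

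Slc38a1 and Slc38a2, the main sodium-coupled glutamine and alanine carriers, lie beside Slc38a4 on chromosome 15, 352 and 295 kb from it. Slc38a1 was at 6.601, 9.36 and 9.30 FPKM in controls and 11.6, 11.9, 9.43 and 10.04 FPKM in Foxl2LsL libraries. Its groups were separated by less than 0.1 FPKM and it did not pass (log2 fold change 0.33; limma adjusted p 0.0880). Slc38a2, which starved cells induce, was at 48.4, 47.2 and 43.4 FPKM in controls and 43.4, 46.7, 36.1 and 36.7 FPKM in Foxl2LsL libraries and did not pass (adjusted p 0.188).

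The lysosomal members Slc38a7, which exports glutamine, and Slc38a9, the arginine sensor of mTORC1, did not pass (log2 fold changes -0.07 and 0.16; limma adjusted p 0.512 and 0.227). Slc38a6 and Slc38a5 overlapped between groups, and Slc38a5 spread from 0.837 to 4.25 FPKM within the controls. Slc38a3, Slc38a8 and Slc38a11 were at most at 0.587 FPKM.

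The Slc43 family holds a pair of large neutral amino acid carriers, Slc43a1 and Slc43a2, and Slc43a3, a carrier of purine bases. Slc43a3 was at 8.36, 9.78 and 15.3 FPKM in controls and 7.01, 7.404, 6.73 and 6.75 FPKM in Foxl2LsL libraries. The groups did not overlap and control 4 was the highest (log2 fold change -0.57, SE 0.17; limma adjusted p 0.0344). Without control 4 the log2 fold change was -0.33 (adjusted p 0.0226), and the call was lost without control 2 or any 1 Foxl2LsL library (adjusted p up to 0.0810), after median-of-ratios scaling or quantile normalization and with no filter on low genes (adjusted p 0.0582). Slc43a1 and Slc43a2, unlike Slc7a5 and Slc7a8 of like substrates, did not pass (log2 fold changes -0.18 and -0.11; adjusted p 0.254 and 0.666). Whether the fold changes of these pairs differ was not tested.

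Genes that act with the transporters were read from 5 lists. In the amino acid starvation response, 16 of 24 tested genes passed, 5 higher and 11 lower, with a median log2 fold change of -0.30; over all genes 40.6% passed. The 4 largest falls were Mthfd2 of folate metabolism (-2.38), the serine synthesis enzyme Psat1 (-1.60), the stress factor Atf3 (-1.32) and the serine synthesis enzyme Phgdh (-1.15), and the largest rise was the secreted glycoprotein gene Stc2 (1.03). Mthfd2 was at 10.04, 11.8 and 22.1 FPKM in controls and 2.75, 1.45, 1.54 and 1.85 FPKM in Foxl2LsL libraries. Atf4 itself did not pass, at 62.0 to 74.4 FPKM in controls and 52.6 to 72.4 FPKM in Foxl2LsL libraries (limma adjusted p 0.244). The list thus moved both ways, more often down than up. Of the transporters with the ATF4 element that passed, Slc7a11 and Slc7a7 rose and Slc1a4 fell. Any part of the element in these changes was not tested.

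**Figure D5:**
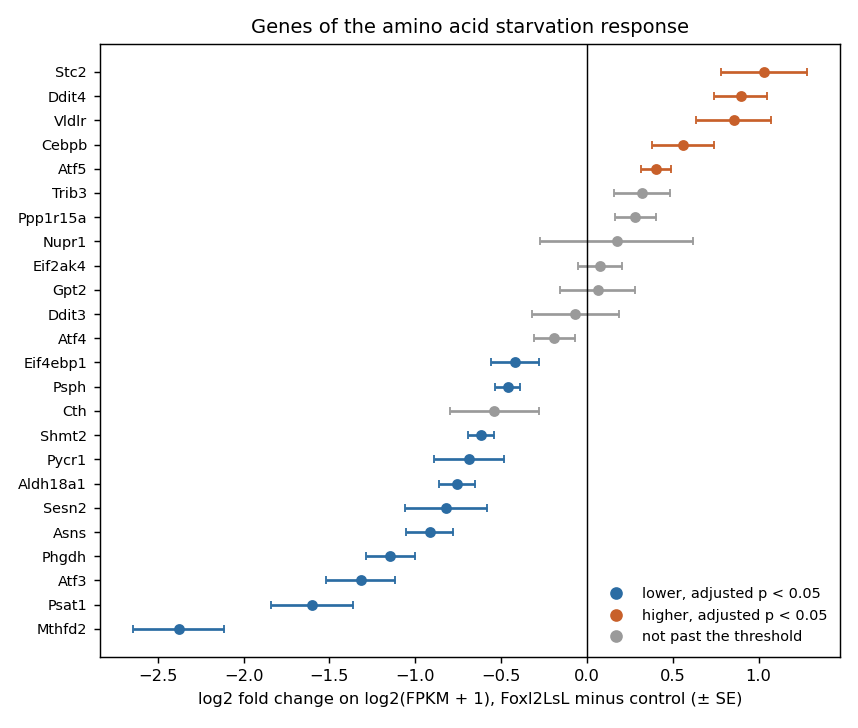
Log2 fold change on the log2(FPKM + 1) scale, Foxl2LsL minus control, with its standard error, for the 24 tested genes of the amino acid starvation response. The lowest is Mthfd2 at -2.38 and the highest Stc2 at 1.03, with 11 genes lower and 5 higher past the threshold.

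Of 28 tested genes of amino acid sensing at the lysosome, 2 rose and 9 fell, close to the share over all genes (39.3% against 40.6%). The largest changes were in Sesn2 (-0.82), a leucine sensor that the starvation list also holds, Sec13 (-0.58), Depdc5 (-0.56), Tfeb (0.47), a factor that drives lysosome genes, and Fnip2 (-0.46). Sesn2 lost its call without control 4 or Foxl2LsL 1, 3 or 4 and with no filter on low genes.

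Of 19 genes of monoamine synthesis, storage and breakdown, 9 were tested, 2 rose and 1 fell, a share of 33.3% against 40.6% of all genes. Slc22a3, an uptake carrier for monoamines outside neurons, rose from 3.08, 2.53 and 3.77 FPKM in controls to 4.11, 8.39, 7.44 and 5.71 FPKM in Foxl2LsL libraries (log2 fold change 0.82, SE 0.21; limma adjusted p 0.0189), opposite to Slc6a2. Its call was lost without control 2 or Foxl2LsL 3. Hnmt, which inactivates histamine, rose (0.80) and the aldehyde dehydrogenase Aldh1a1 fell (-1.47). Maoa and Maob, which break down monoamines, did not pass, and Maob was at 50.9 FPKM in control 4 against 4.49 to 12.4 FPKM in the 6 other libraries. Of 22 adrenergic, serotonin and dopamine receptors, 5 were tested and 2 rose, a share of 40.0% against 40.6% of all genes. Htr1d, a serotonin receptor, was at 0.113, 0.209 and 0.0860 FPKM in controls and 2.38, 0.954, 1.96 and 2.22 FPKM in Foxl2LsL libraries. Adra2c, an adrenergic receptor, had a log2 fold change of 1.33. Their control means were 0.136 and 0.833 FPKM, so both reached the filter through the Foxl2LsL libraries. Among the receptors under the filter, Adra1a, Adra1b, Adra2b and Htr6 were lower without overlap and Drd1 was higher without overlap, all at 1.33 FPKM or less. Adra2b was at 0.072 FPKM or less and Htr6 at 0.273 FPKM or less. The groups also did not overlap in 47.6% of all tested genes, and that share was not taken for genes under the filter.

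In the list for metabolism of the substrates, 6 of 29 tested genes rose and 6 fell, again close to all genes (41.4% against 40.6%). Gatm, the first enzyme of creatine synthesis, fell from 19.0, 18.2 and 19.5 FPKM in controls to 5.36, 6.03, 6.70 and 6.28 FPKM in Foxl2LsL libraries (log2 fold change -1.49, SE 0.08; limma adjusted p 9.66e-05), beside the creatine transporter Slc6a8, which did not pass. Odc1, which turns ornithine into polyamine (-1.05), Nos3, which makes nitric oxide from arginine (-0.99), and Abat, which breaks down GABA (-1.18), fell. Arg1, which splits arginine, rose, and its Foxl2LsL libraries were uneven, at 123, 4.41, 10.001 and 54.9 FPKM against 0.629 to 1.15 FPKM in controls. The call of Arg1 was lost without control 2 or Foxl2LsL 4, and that of Abat without control 2, control 4 or any 1 Foxl2LsL library, and both were lost in limma-voom on recovered fragments, that of Abat also with no filter on low genes.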

How the data were processed

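The authors deposited 1 table of FPKM values for 24964 gene symbols, 1 column per library, per the file headers, with another column for gene length in bases. STAR 2.5.2b, featureCounts 1.5.0-p1, Subread, DESeq2 1.12.4 and mm10 (GRCm38) are named, without roles, in the submitters' processing notes. FPKM times length fell on whole multiples of 1 step per library (100% of low values within 0.1 of a whole number), which gave fragments; intervals from them cover counting error only. FPKM was analysed as log2(FPKM + 1) for 13334 genes with a mean of at least 1, plus Foxl2 whatever its level, with limma 3.58.1 in R 4.3.3 (lmFit, eBayes with trend) and Benjamini-Hochberg adjustment over all genes, at 0.05. Fold changes on this scale understate those of low genes. In simulated data on 13334 genes, 184 of 200 genes changed by 1.5 (log2) were called, and 12 unchanged ones. The changed genes were drawn from those with a mean log2(FPKM + 1) above 1.5, so recovery of lower genes was not tested. They were also a far smaller share than the 40.6% called in the data. Coordinates and exon overlaps came from GENCODE M21 (GRCm38), promoters from RefSeq (GRCm38). Figures used matplotlib 3.10.9.

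All of the 61 members but 1, which lay under the filter and is not reported here, are named. Those past the threshold have the value of every library, and in each list up to 5 members past it with the largest change were named; further list genes were chosen after their values were seen. Markers and lists, like the members, were chosen with earlier results of these data known. In addition to the lists given in the text, marker lists for Schwann cells and glia (2 of 3 tested higher), epithelium (3 higher and 2 lower of 12), stroma (1 higher and 4 lower of 9), smooth muscle (4 of 10 higher), endothelium (2 higher and 7 lower of 10), mesothelium (1 of 6 lower), ovary (0 of 1), oviduct (1 higher and 1 lower of 4) and erythrocytes (none tested) were read. The alternatives were other pseudocounts, filters, scalings, limma settings, limma-voom, a replicate block and leaving out each library.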

Additional observations from a re-analysis of the deposited data

Results flagged for a closer look

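Slc3a2 in Foxl2LsL 3, at 72.2 FPKM, stood apart from the 3 other Foxl2LsL libraries (59.7 to 61.6 FPKM) by more than the 95% limit of Dixon's test for 4 values. It was the only such case among the 36 tested transporters in the Foxl2LsL group, the 3 controls being too few for the test, and chance flags about 1 in 20 groups.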

How the results depend on the processing

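Across 18 alternatives, of the 15 transporters past the threshold, 0 changed direction and 7 kept their call under every alternative that tested them: Slc6a2, Slc7a2, Slc7a5, Slc7a6, Slc7a8, Slc36a1 and Slc38a4. Against 4 higher and 11 lower transporters, there were 2 higher with no filter, where the 11 lower held Slc6a12 and Slc7a15 in place of Slc36a4 and Slc43a3, 7 lower with a mean FPKM of at least 5, which tested fewer genes, and 1 to 3 higher when single libraries were left out. Of all called genes 41.1% were higher as deposited and 50.5% after median-of-ratios scaling, where the transporters were 4 higher and 9 lower. Against 11 called genes, lysosomal sensing had 7 with a mean FPKM of at least 5 and 7 to 10 across the fits that left out a library. Substrate metabolism had 7 to 13 there, against 12. The receptors had 6 with no filter and 0 with a mean FPKM of at least 5, which none of them reached. The cause of the other changes was not tested.

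The replicate block, on libraries 1, 2 and 4 of both groups, gave 3243 genes, 1 higher and 6 lower transporters, and 4 genes of lysosomal sensing; these 7 transporters were the 7 above. The block also ended the calls of Slc22a3 and Sesn2, and the 8 transporters it lost had adjusted p values of 0.0507 (Slc38a10) to 0.150 (Slc7a4), with 0.0685 for Slc7a11 and 0.112 for Slc36a4. Without the block, those 6 libraries gave 3975 genes and 11 transporters. Deviations from the group means correlated at 0.228 between the libraries numbered 1, at -0.031 for number 2 and at -0.112 for number 4. The labels state no pairing.

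Direction changed only for genes that did not pass. With median-of-ratios scaling the log2 fold changes were 0.0137 for Slc1a5 and 0.0227 for Slc7a1, with quantile normalization 0.0158 for Slc7a1, and with array weights -0.12 for Slc6a13, -0.0737 for Slc38a6 and -0.15 for Foxl2. Across the fits that left out a library they ranged from -0.17 to 0.0518 for Slc7a1, -0.10 to 0.28 for Foxl2, -0.10 to 0.0032 for Slc6a8, -0.0159 to 0.15 for Slc1a1, -0.12 to 0.0117 for Slc6a9 and -0.27 to 0.0689 for Slc43a2. With 25 to 88 fragments in the Foxl2LsL libraries, depth limits the size of the fall of Slc6a2 but not its direction.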
